A study of Mus musculus with 8 samples.

Results

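The genes described are 10 members of the TGF-β pathway: the ligand genes Tgfb1 and Tgfb2, the receptor genes Tgfbr1 and Tgfbr2, the signal transducers Smad2, Smad3 and Smad4, the inhibitory Smad7, and Ltbp1 and Thbs1, whose products hold or release the latent ligand. They were chosen by name. The body of each was the longest protein-coding transcript of GENCODE release M21 on mm10, and its H3K36me3 peaks were read in 4 ChIP–seq peak lists. The 10 genes are part of 16344 protein-coding genes with at least 4 exons, of which 8767 had at least 10% of the body in peaks in at least 1 library. These 8767 are called marked genes. Of the 10 genes, 8 were marked, while Tgfb2 and Ltbp1 stayed under 10% in every library. No body among the 10 overlapped that of another protein-coding gene.

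The libraries came from i4F MEFs, mouse embryonic fibroblasts taken at E13.5 that carry a doxycycline-inducible cassette of OCT4, SOX2, KLF4 and MYC (OSKM). All cells came from 1 embryo, which the labels name Clone 1, and were kept for 72 h in iPSC medium, so the uninduced groups also carried the cassette and this medium. The groups were MEF (no doxycycline), MEF B12 (2 µM vitamin B12), OSKM (doxycycline at 1 µg/ml per the labels) and OSKM B12 (both agents), each with 1 H3K36me3 library and 1 input library. Doxycycline and the factors it induces were added together and cannot be told apart, and induction of the cassette cannot be read from peak lists. With 1 library per condition, none of the differences can be checked against replicates, and p-values are not used. The intervals printed cover counting error of the tags in called peaks only, at the 95% level. They do not cover the error of calling a base in or out of a peak. In bulk chromatin, fewer cells with a mark and less mark per cell cannot be told apart. The extraction protocol names the antibody's target as H3K3me3, while the sample labels of the immunoprecipitated libraries give H3K36m3.

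TGF-β ligands are secreted bound to their propeptide and to a latent TGF-β binding protein such as LTBP1, which anchors the complex in the matrix. Thrombospondin 1, the product of Thbs1, is among the proteins that can release the active ligand. The ligand joins TGFBR2, which phosphorylates TGFBR1, which in turn phosphorylates SMAD2 and SMAD3. These pair with SMAD4 and enter the nucleus, and SMAD7 blocks the receptors as a feedback inhibitor. In fibroblasts the pathway sustains mesenchymal and matrix genes, and its inhibition is known to ease reprogramming. H3K36me3 is laid behind elongating RNA polymerase II by SETD2, so it lies in the bodies of transcribed genes rather than at their promoters.

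RefSeq promoter windows, the 250 bases before a transcript start on GRCm38.p6, were found for 6 of the 10 genes: Tgfb1, Tgfb2, Tgfbr1, Tgfbr2, Smad3 and Ltbp1. Of their 8 windows, 6 lay at the start of the body and 2 were internal, 1 in Tgfbr1 and 1 in Ltbp1. These pairs are shown because the peaks of both genes lay largely after the internal start. All are on the forward strand. The Tgfbr1 windows are chr4:47352972-47353221 and chr4:47385966-47386215, and the Ltbp1 windows are chr17:75005279-75005528 and chr17:75178531-75178780. Capitals mark the Smad motif CAGAC on either strand.
Tgfbr1 first: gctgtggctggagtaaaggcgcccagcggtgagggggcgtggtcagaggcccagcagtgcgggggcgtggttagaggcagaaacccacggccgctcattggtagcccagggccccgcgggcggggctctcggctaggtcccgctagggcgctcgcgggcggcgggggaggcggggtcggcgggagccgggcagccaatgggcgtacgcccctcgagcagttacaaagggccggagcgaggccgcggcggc
Tgfbr1 internal: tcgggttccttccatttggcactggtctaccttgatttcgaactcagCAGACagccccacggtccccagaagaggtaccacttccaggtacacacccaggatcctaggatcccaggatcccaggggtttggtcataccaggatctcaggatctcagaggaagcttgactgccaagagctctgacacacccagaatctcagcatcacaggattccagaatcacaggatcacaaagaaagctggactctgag
Ltbp1 first: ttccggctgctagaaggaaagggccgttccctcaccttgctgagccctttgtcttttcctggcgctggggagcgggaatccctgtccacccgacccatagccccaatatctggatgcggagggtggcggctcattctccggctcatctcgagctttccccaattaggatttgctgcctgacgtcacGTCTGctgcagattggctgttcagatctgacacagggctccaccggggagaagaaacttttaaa
Ltbp1 internal: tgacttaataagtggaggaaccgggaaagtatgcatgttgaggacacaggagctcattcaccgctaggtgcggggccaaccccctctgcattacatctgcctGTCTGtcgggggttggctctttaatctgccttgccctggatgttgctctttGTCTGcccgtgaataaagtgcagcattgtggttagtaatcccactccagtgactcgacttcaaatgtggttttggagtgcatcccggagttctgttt
The first Tgfbr1 window was 74.8% G and C and held no CAGAC, and its internal window was 52.8% G and C with 1 match. The Ltbp1 windows were 56.8% and 50.8% G and C, with 1 match in the first and 2 in the internal window. Among the other windows, Tgfb2 held 2 matches and Tgfbr2 held 1, and the windows of Tgfb1 and Smad3 held none. Of 32851 windows of the same length, 42.2% held CAGAC. The E-box of Myc (CACGTG) and the Klf4 motif (GGGTGTGG) were each found once, both in the Tgfb2 window, against 6.02% and 3.20% of all windows. The AP-1 motif TGANTCA, the octamer ATGCAAAT and the Sox motif ACAATGG were in none of the 8 windows, and 6.75%, 1.60% and 3.02% of all windows held them. None of the 6 first windows touched a peak in any library. The internal Tgfbr1 window lay whole inside a peak in MEF, MEF B12 and OSKM B12, and outside every peak in OSKM.

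The 4 H3K36me3 libraries held between 29046913 and 33399267 tags, with 65473 to 69420 peaks on the main chromosomes. Peaks covered 154 Mb in MEF, 166 Mb in MEF B12 and 166 Mb in OSKM B12, but 92.8 Mb in OSKM, where a peak was 1417 bases long on average against 2287 to 2478 bases in the others. OSKM thus stood apart although it was the deepest library, and with 1 library a difference in the efficiency of the immunoprecipitation and one in the cells cannot be told apart. Among 12 fibroblast markers, 11 were covered over at least 10% of the body in every library, and Twist1 had no peak. Their summed density, defined below, was 6.97 in MEF against 4.18 in OSKM, and 7.72 in MEF B12 against 8.06 in OSKM B12. The median density over all marked genes was 0.286 in MEF against 0.141 in OSKM, and 0.340 in MEF B12 against 0.357 in OSKM B12. None of 7 epithelial markers had a peak in any library. Of 7 pluripotency markers, Zfp42 alone had a peak, over 2.42% of its body in OSKM. The part of cell composition in the results below was not tested.

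**Figure D1:**
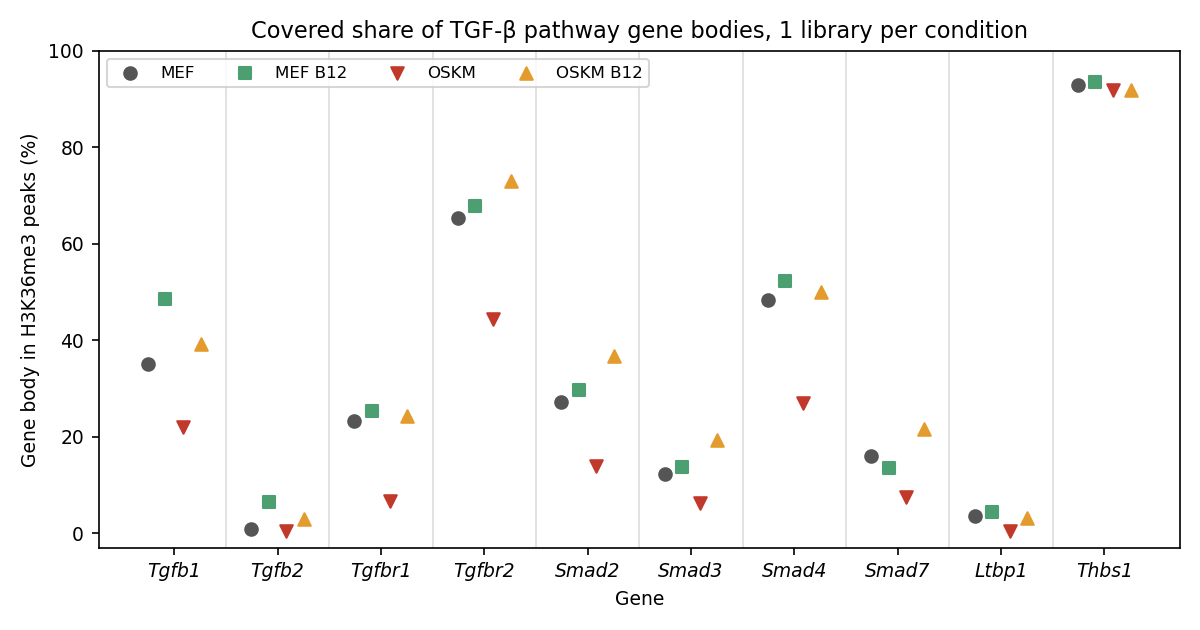
Share of each gene body in H3K36me3 peaks (y axis, %) for the 10 TGF-β pathway genes (x axis), with 1 point per condition and 1 library behind each point. OSKM is the lowest point for every gene, and the 4 points of Thbs1 lie together between 91.9% and 93.6%.

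The measures used are the covered share, which is the percentage of body bases in peaks, and the density. The density is the pileup per 1000000 tags (scaled pileup) summed over the body bases in peaks and divided by the body length, so it can be compared between genes of different length. Pileup is the authors' mean number of extended fragments over a peak. Signal outside peaks counts as 0, so a lower density can come from fewer covered bases, from a lower pileup in them, or from both. Log2 changes were taken after adding 0.05 to each density, and a gene was called when the change passed 1.5-fold. For Tgfb2 and Ltbp1, whose densities stayed below the added 0.05, this makes changes small, so plain ratios are printed too.

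Of the ligand genes, Tgfb1 carried the mark and Tgfb2 carried very little. Tgfb1 encodes the main TGF-β isoform of fibroblasts and spans chr7:25687002-25705077 on the forward strand. Its covered share was 35.0% in MEF and 48.6% in MEF B12, but 22.1% in OSKM against 39.3% in OSKM B12. Its density was 0.156 in MEF and 0.253 in MEF B12, but 0.0812 in OSKM against 0.204 in OSKM B12. OSKM was the lowest and MEF B12 the highest on both measures. The first peak began 4.88 to 5.19 kb after the transcript start, in intron 1, in every library, and the middle of the body held most of the mark. In MEF the covered share over 5 equal parts numbered from the 5′ end was 0% in part 1, 54.8% in part 2, 88.8% in part 3, 30.2% in part 4 and 1.22% in part 5. The mean over marked genes climbed along the body instead, from 13.2% in part 1 to 72.1% in part 5 in MEF. Tgfb1 ranked above 28.4% to 37.6% of marked genes by density over the 4 libraries.

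Tgfb2, which encodes another isoform with roles in the embryo, spans 83.2 kb on the reverse strand at chr1:186622792-186705989. Its covered share was 0.911% in MEF against 0.417% in OSKM, and 6.40% in MEF B12 against 3.02% in OSKM B12. It held 2 peaks in MEF and 6 in MEF B12, but 1 in OSKM against 5 in OSKM B12. All were at most 1571 bases long, and the highest −log10 q was 2.63. The densities were 0.00387 in MEF against 0.00165 in OSKM, and 0.0237 in MEF B12 against 0.0112 in OSKM B12. Both libraries with vitamin B12 thus lay above both without it. This order was not particular to Tgfb2, as the median density of marked genes had it too. That median was 0.340 in MEF B12 and 0.357 in OSKM B12, against 0.286 in MEF and 0.141 in OSKM. No Tgfb2 base was in a peak in all 4 libraries, and of the 758 bases covered in MEF, MEF B12 covered 54.0%, OSKM 0% and OSKM B12 0%.

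The receptor genes carried the mark at different levels, Tgfbr2 above Tgfbr1 in every library. Tgfbr2, the gene of the ligand-binding receptor, spans 91.0 kb on the reverse strand at chr9:116084293-116175265. It was covered over 65.4% in MEF and 67.9% in MEF B12, but 44.5% in OSKM against 73.1% in OSKM B12. Its densities were 0.418 in MEF and 0.499 in MEF B12, but 0.225 in OSKM against 0.548 in OSKM B12, above 68.2% to 73.4% of marked genes. OSKM was the lowest library and OSKM B12 the highest. The first peak began 3.53 to 5.18 kb after the start, and from about the middle of the body on the mark was nearly unbroken outside OSKM. In part 4 of the body, the share of bases in peaks was 98.3% in MEF against 71.1% in OSKM, and 97.8% in MEF B12 against 98.2% in OSKM B12. OSKM had more peaks than MEF, 23 against 18, but they were shorter, with a mean of 1759 bases in the body against 3308. The longest peak measured 18829 bases in MEF and 8923 bases in OSKM.

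Tgfbr1, the gene of the signalling receptor kinase, spans 61.7 kb on the forward strand at chr4:47353222-47414931. It was covered over 23.2% in MEF and 25.3% in MEF B12, but 6.70% in OSKM against 24.4% in OSKM B12. Its densities were 0.113 in MEF and 0.134 in MEF B12, but 0.0287 in OSKM against 0.128 in OSKM B12. The 3 libraries other than OSKM lay close together, and OSKM was far below them. Intron 1, which makes up 49.2% of the body, had no covered base in any library. The first peak began 32.5 kb after the start in MEF, 31.5 kb in MEF B12 and 32.5 kb in OSKM B12. In OSKM it began at 43.1 kb. The internal start printed above lies 33.0 kb into the body. Before it, at most 2.66% of bases were covered in any library. After it, the covered share was 48.1% in MEF against 14.4% in OSKM, and 51.3% in MEF B12 against 50.7% in OSKM B12. The peak lists do not say from which start the covered part was transcribed.

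**Figure D2:**
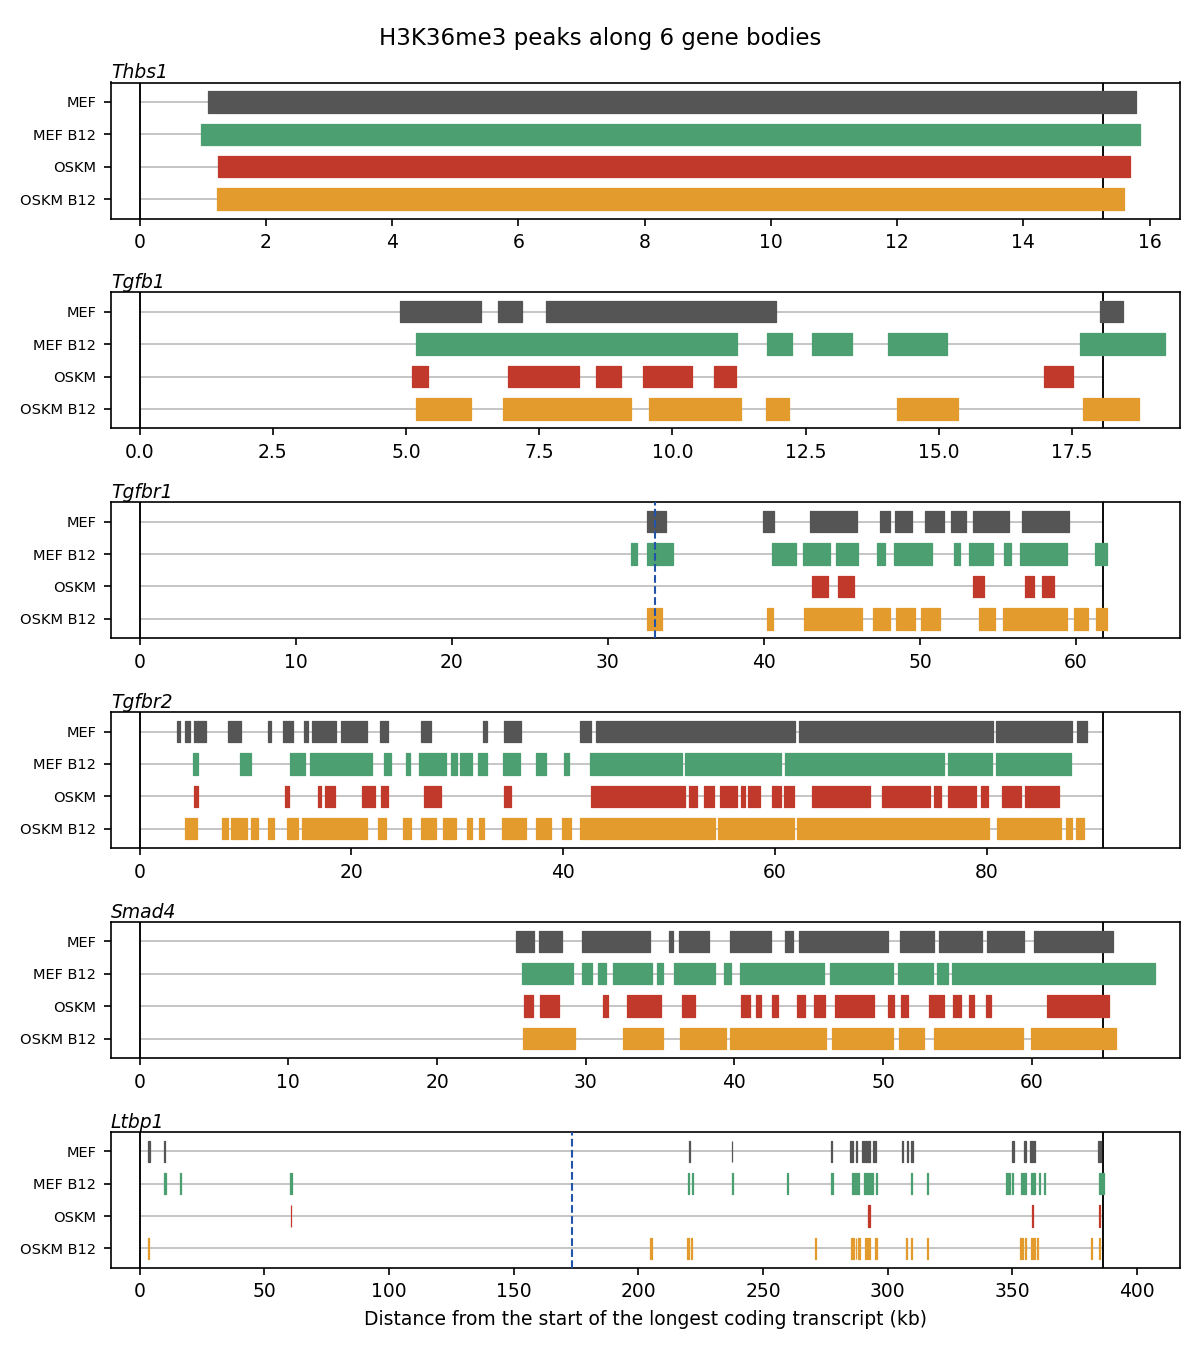
Positions of H3K36me3 peaks (bars) along 6 gene bodies in the 4 libraries, with the distance from the start of the longest coding transcript on the x axis in kb. Solid lines mark the start and end of the body and dashed lines the internal RefSeq starts of Tgfbr1 (33.0 kb) and Ltbp1 (173 kb). Thbs1 is a single bar in every library, whereas the bars of Tgfb1, Tgfbr1, Tgfbr2 and Smad4 are shorter on average in OSKM. Those of Ltbp1 are sparse.

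The genes of the receptor-activated Smads carried the mark in their 3′ parts. Smad2, on chromosome 18 with a body of 69.4 kb, was covered over 27.3% in MEF and 29.8% in MEF B12, but 13.9% in OSKM against 36.8% in OSKM B12. Its densities were 0.150 in MEF and 0.183 in MEF B12, but 0.0602 in OSKM against 0.204 in OSKM B12. OSKM was the lowest library and OSKM B12 the highest. Intron 1, 29.5% of the body, held no covered base in any library, and the first peak began 30.3% to 31.5% of the way along the body, at or just after exon 2. In part 5, at the 3′ end, the covered share was 78.1% in MEF against 40.0% in OSKM, and 95.1% in MEF B12 against 97.1% in OSKM B12. Part 3 of Smad2 had no peak in any library although part 2 did.

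Smad3 spans 111 kb on the reverse strand at chr9:63646767-63757994, of which 80.5% is intron 1. It was covered over 12.3% in MEF and 13.7% in MEF B12, but 6.37% in OSKM against 19.2% in OSKM B12. Its densities were 0.0606 in MEF and 0.0732 in MEF B12, but 0.0280 in OSKM against 0.107 in OSKM B12. OSKM B12 was the highest library by a margin larger than that between MEF and MEF B12. Intron 1 was covered over 1.76% to 5.85% only. The rest of Smad3 was covered over 51.5% in MEF against 26.0% in OSKM, and 50.8% in MEF B12 against 76.4% in OSKM B12. Across marked genes, intron 1 was 16.2% of the body at the median, and its median cover was 0% in each library.

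Smad4, the gene of the partner shared by the receptor-activated Smads, lies on chromosome 18 with a body of 64.8 kb. It was covered over 48.3% in MEF and 52.4% in MEF B12, but 27.1% in OSKM against 50.0% in OSKM B12. Its densities were 0.262 in MEF and 0.311 in MEF B12, but 0.128 in OSKM against 0.312 in OSKM B12, near the middle of the marked genes and above 44.5% to 46.9% of them. OSKM was the lowest on both measures and the other libraries lay close together. The first peak began 25.3 to 25.9 kb after the start, around exon 2, and intron 1 was at most 1.63% covered in any library. OSKM held 18 peaks against 12 in MEF and 8 in OSKM B12, with mean lengths in the body of 974 bases, 2607 bases and 4052 bases. More and shorter peaks in OSKM were thus seen in Smad4 as in Tgfbr2.

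Smad7, the gene of the inhibitory Smad, lies on chromosome 18 with a body of 28.4 kb and 4 exons. It was covered over 16.0% in MEF and 13.5% in MEF B12, but 7.55% in OSKM against 21.6% in OSKM B12. Its densities were 0.0819 in MEF and 0.0821 in MEF B12, but 0.0325 in OSKM against 0.121 in OSKM B12. OSKM was the lowest and OSKM B12 the highest library. Smad7 was the only gene of the 10 whose covered share was lower in MEF B12 than in MEF. A peak in the 3′ part was found in every library, between 94.1% and 96.9% of the way along the body at its middle, with a −log10 q of 6.80 in MEF against 3.15 in OSKM, and 8.89 in MEF B12 against 7.33 in OSKM B12. The other Smad7 peaks were weaker, with a −log10 q of at most 3.05.

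**Figure D3:**
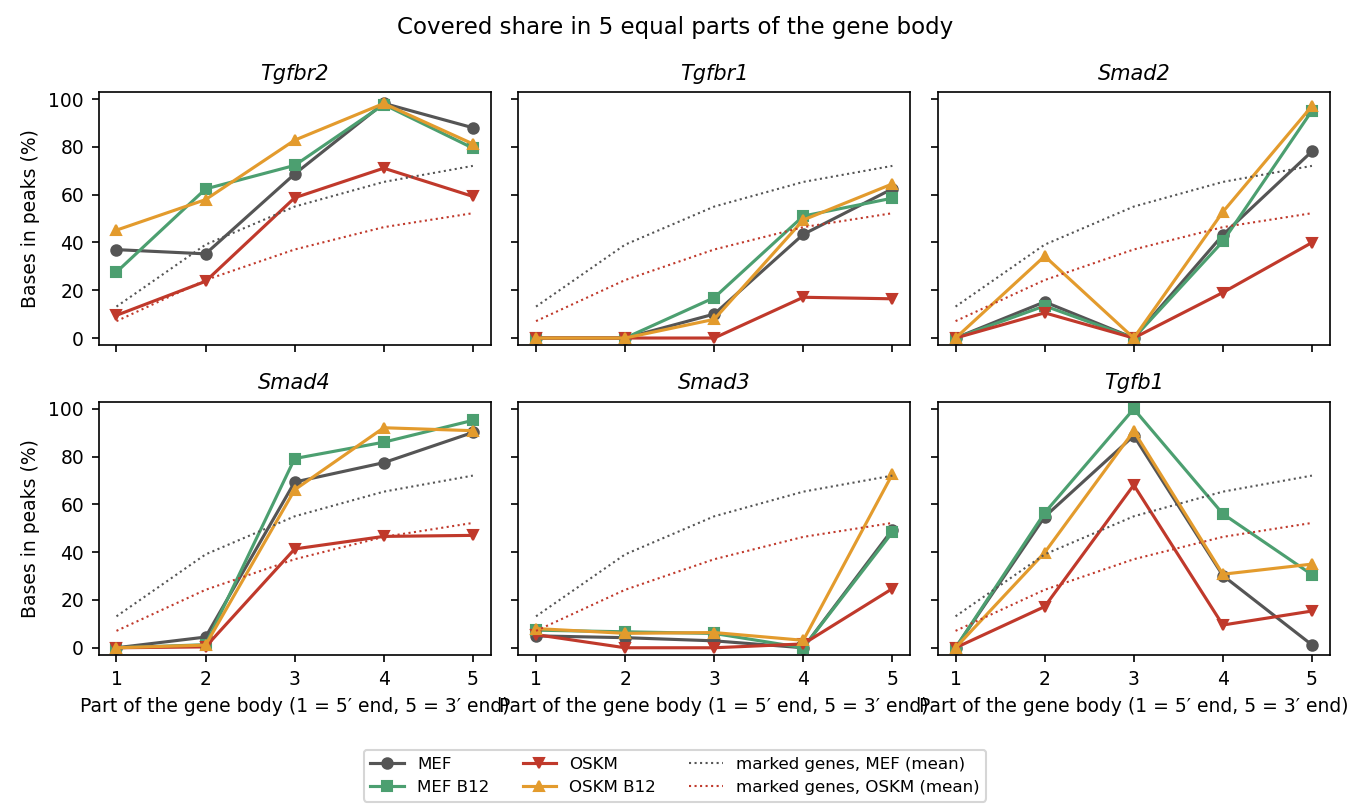
Covered share (y axis, %) in 5 equal parts of the gene body from the 5′ end (1) to the 3′ end (5) for 6 genes, with a line per library and dotted lines for the mean of the marked genes in MEF and OSKM. Smad2, Smad3, Smad4 and Tgfbr1 carry the mark in their last parts, Tgfb1 in the middle part, and OSKM is the lowest line in most parts.

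The latent-complex gene Ltbp1 and the activator gene Thbs1 stood near the ends of the range. Ltbp1 spans 386 kb on the forward strand at chr17:75005568-75391767, with 34 exons. It was covered over 3.64% in MEF and 4.48% in MEF B12, but 0.419% in OSKM against 3.08% in OSKM B12. Its densities were 0.0151 in MEF and 0.0197 in MEF B12, but 0.00154 in OSKM against 0.0133 in OSKM B12. The 3 libraries other than OSKM held 18 to 25 scattered peaks of 567 to 781 bases on average, and OSKM held 4. The internal start printed above lies 173 kb into the body. After it, the covered share was 6.00% in MEF against 0.608% in OSKM, and 7.40% in MEF B12 against 5.42% in OSKM B12, and before it the share was 0.185% to 0.897%. Of the 18 MEF peaks, 16 lay after the internal start.

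Thbs1 spans 15.3 kb on the forward strand at chr2:118111876-118127133, with 22 exons. It was a single unbroken peak in every library, from 0.978 to 1.24 kb after the start to 0.332 to 0.588 kb past the end, and 20 of its 22 exons touched the peak. The covered share was 92.9% in MEF and 93.6% in MEF B12, but 91.9% in OSKM against 92.0% in OSKM B12. Its densities were 0.866 in MEF and 0.988 in MEF B12, but 0.583 in OSKM against 1.02 in OSKM B12, above 98.6% to 99.6% of marked genes. The density of Thbs1 was thus lower in OSKM while its covered share was nearly equal. The −log10 q of the peak was 11.1 in MEF against 5.48 in OSKM, and 14.2 in MEF B12 against 16.2 in OSKM B12. Among the 10 genes, only Thbs1 and Tgfbr2 had any OSKM peak whose −log10 q reached 5, with 1 each. Such peaks were few across the whole OSKM library, 2169 of 65473 peaks, against 10080 of 67184 in MEF. They were 11872 of 66968 in MEF B12 and 13236 of 69420 in OSKM B12.

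By density in MEF the order was Thbs1, Tgfbr2, Smad4, Tgfb1, Smad2, Tgfbr1, Smad7, Smad3, Ltbp1 and Tgfb2. Tgfb1 and Smad2 stood at 0.156 and 0.150, which rest on about 315 and 1160 estimated tags, and both at 0.204 in OSKM B12. The order of neighbours that close is not established by 1 library.

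The comparison of OSKM with MEF asks how the mark of these genes differed 72 h after induction. Density was lower in OSKM for 10 of 10 genes, and 6 fell past 1.5-fold: Tgfb1, Tgfbr1, Tgfbr2, Smad2, Smad4 and Smad7. These 6 are among the 8 marked genes of the 10, and Tgfb2 and Ltbp1 are not marked. The background was 68.6% of marked genes past the same limit, so falls of this size were common across marked genes. By covered share, 5 of the 10, all of them marked, fell by at least 10 percentage points (Tgfb1, Tgfbr1, Tgfbr2, Smad2 and Smad4). The background was 65.2% of marked genes. The median log2 change was -0.66 over the 10 genes and -0.71 over the marked genes. Measured against that shift of all marked genes, 4 of the 10 had changed more downwards and 6 less. The 6 include Ltbp1 and Tgfb2, whose log2 changes are held small by the added constant. Their plain density ratios were 0.102 and 0.426. With densities divided by the marked-gene median of each library, Tgfbr2, among the 4, stood at 0.114. Smad3 and Smad7, among the 6, then stood at -0.0511 and -0.184, so these counts depend on the scaling.

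Tgfbr1 had the largest fall of the called genes. Its density in OSKM was 0.254 times that in MEF (counting interval 0.217 to 0.297), a log2 change of -1.05, and 15.4% of marked genes had a lower change. The ratio was 0.402 for Smad2 (0.360 to 0.447), 0.397 for Smad7 (0.313 to 0.498), 0.487 for Smad4 (0.451 to 0.527), 0.520 for Tgfb1 (0.428 to 0.628) and 0.539 for Tgfbr2 (0.512 to 0.567). The log2 changes of these genes ran from -0.86 in Smad2 to -0.65 in Tgfb1, inside the quartiles of the marked genes at -0.92 and -0.54. Tgfbr1 alone of the called genes lay below the lower quartile. The uncalled genes were Smad3, with a ratio of 0.462 (0.406 to 0.524) and a log2 change of -0.50, Thbs1 with 0.673 (0.621 to 0.729) and -0.53, Ltbp1 with 0.102 (0.0783 to 0.131) and -0.34, and Tgfb2 with 0.426 (0.222 to 0.791) and -0.06. For Ltbp1 the plain ratio was the lowest of the 10, and its log2 change was small because its MEF density of 0.0151 lay under the added 0.05. The plain ratio of Smad3 was also below those of the called Smad4, Tgfb1 and Tgfbr2. With 0.01 added instead, the log2 change of Smad3 was -0.89 and 8 of the 10 genes were called, against 81.9% of marked genes.

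The comparison of OSKM B12 with OSKM asks what vitamin B12 was associated with during induction. Density was higher in OSKM B12 for 10 of 10 genes, and 8 rose past 1.5-fold, all but Tgfb2 and Ltbp1. These 8 are all the marked genes of the 10, as Tgfb2 and Ltbp1 are not marked. The background was 95.2% of marked genes, so the call holds for nearly every marked gene. The covered share rose by at least 10 percentage points in 7 of the 10 genes, all of them marked, against 76.3% of marked genes. These rises ran from 12.9 points in Smad3 to 28.6 points in Tgfbr2. The median log2 change was 1.02 over the 10 genes and 0.98 over the marked genes. Against that shift, 6 of the 10 changed more upwards and 4 less. The 4 include Ltbp1 and Tgfb2, whose log2 changes are held small by the added constant. Their plain density ratios were 8.67 and 6.80.

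Smad2 and Tgfbr1 had the largest log2 rises, 1.21 and 1.18. The density ratio of OSKM B12 to OSKM was 3.39 for Smad2 (3.06 to 3.77) and 4.45 for Tgfbr1 (3.81 to 5.21). It was 2.43 for Tgfbr2 (2.32 to 2.55), 2.44 for Smad4 (2.26 to 2.64), 2.51 for Tgfb1 (2.09 to 3.03), 3.72 for Smad7 (2.99 to 4.67) and 3.83 for Smad3 (3.40 to 4.32). The log2 rise of Thbs1 was 0.75, which exceeded that of 13.9% of marked genes, with a ratio of 1.75 (1.61 to 1.89) and a change of 0.0852 points in covered share. The uncalled Ltbp1 and Tgfb2 had ratios of 8.67 (6.72 to 11.3) and 6.80 (3.97 to 12.4) on densities of at most 0.0133. In OSKM these densities rest on 4 peaks in Ltbp1 and 1 in Tgfb2. Bases outside peaks count as 0 in the ratios, so the intervals understate their uncertainty. This comparison and that of OSKM with MEF share the OSKM library, so a low value there moves both.

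The comparison of MEF B12 with MEF concerns vitamin B12 without induction. None of the 10 genes passed 1.5-fold in density, against 3.44% of marked genes that were higher. The median log2 change was 0.19 over the 10 genes and 0.21 over the marked genes. Tgfb1 came nearest, with a density ratio of 1.62 (1.40 to 1.88), a log2 change of 0.56 above that of 95.9% of marked genes, and a covered share 13.6 points higher. Tgfb2 had a ratio of 6.12 (4.27 to 8.99) from a density of 0.00387, and a log2 change of 0.45. Smad7 had a ratio of 1.00 (0.836 to 1.20), and 7.96% of marked genes had a lower log2 change. The ratios of the other 7 genes lay between 1.14 in Thbs1 and 1.30 in Ltbp1.

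OSKM B12 was also set against MEF, a comparison that does not use the OSKM library. None of the 10 passed 1.5-fold in either direction, against 6.97% of marked genes that were higher, and the median log2 change was 0.26 over the 10 genes and 0.26 over the marked genes. Smad3 had the largest change, a ratio of 1.77 (1.61 to 1.94) and a log2 change of 0.51, above that of 88.8% of marked genes. Ltbp1 was the only gene below MEF, with a ratio of 0.880 (0.783 to 0.989), and 6.09% of marked genes had a lower log2 change. The ratios of Smad2, Smad7, Tgfbr2 and Tgfb1 were 1.36, 1.48, 1.31 and 1.31, and those of Tgfbr1, Smad4 and Thbs1 were 1.13, 1.19 and 1.17.

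**Figure D4:**
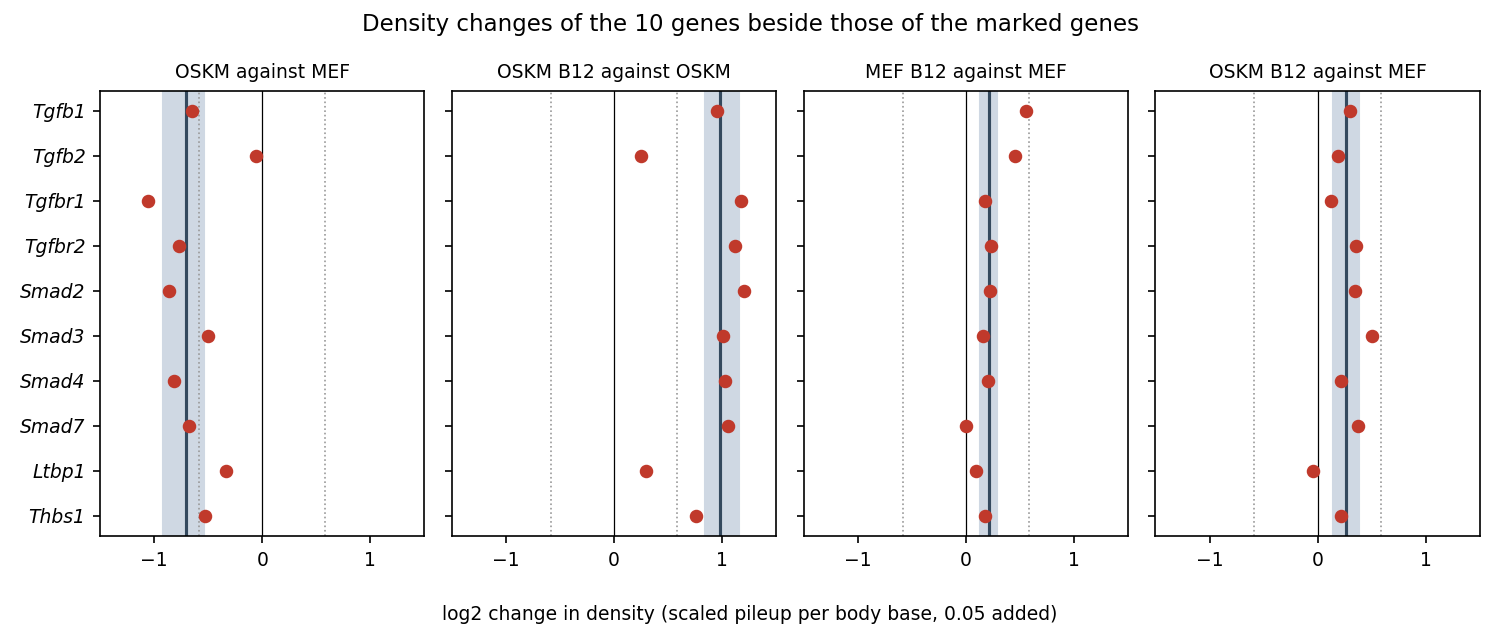
Log2 change in density after adding 0.05 (x axis) of the 10 genes (points) in 4 comparisons. The vertical line and the shaded band are the median and quartiles of the 8767 marked genes and dotted lines mark 1.5-fold; most points lie in or near the band, with Tgfb2 and Ltbp1 nearest to 0 in both comparisons with OSKM.

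The bases that made up these differences were followed one by one. Of the 177606 bases of the 10 bodies in MEF peaks, 83.0% were in MEF B12 peaks and 51.8% in OSKM peaks, against 89.0% and 57.6% for the marked genes together. Of the 85679 bases in MEF peaks but not in OSKM peaks, 73.3% were again in OSKM B12 peaks, against 76.0% for the marked genes. OSKM peaks were mostly a subset of MEF peaks: 91.0% of their bases in the 10 bodies were also in MEF peaks, against 93.4% for the marked genes together. By gene this share was 0% in Tgfb2, 73.4% in Smad3 and 74.5% in Tgfb1, but 100% in Tgfbr1 and Thbs1. The share of MEF bases kept in OSKM was 98.9% in Thbs1, 64.4% in Tgfbr2, 49.7% in Smad4, 47.0% in Tgfb1, 46.6% in Smad2, 38.0% in Smad3, 35.6% in Smad7, 28.9% in Tgfbr1, 9.19% in Ltbp1 and 0% in Tgfb2. Of the bases not kept, 99.1% of those of Smad2 and 82.6% of those of Tgfbr2 were covered in OSKM B12, but 35.7% of those of Ltbp1. Of OSKM B12 bases, 24.8% over the 10 bodies were not in MEF peaks, against 17.3% for the marked genes. By gene this share was 100% in Tgfb2, 51.1% in Ltbp1, 41.5% in Smad3 and 41.3% in Smad7, down to 0% in Thbs1.

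Where all 4 libraries had a peak, pileup could be compared over the same bases, with the limit that the authors' pileup is a mean over each whole peak. Such bases were found in 9 of the 10 genes, from 1238 bases in Ltbp1 to 36954 in Tgfbr2. The ratio of OSKM to MEF over them was 0.681 in Thbs1 (0.628 to 0.738), 0.743 in Tgfbr2 (0.703 to 0.786), 0.791 in Smad2 (0.688 to 0.909) and 0.840 in Smad4 (0.764 to 0.924). For Tgfbr1 it was 0.814 (0.666 to 0.994) and for Smad3 0.842 (0.710 to 0.998). The intervals of Tgfb1, Smad7 and Ltbp1 included 1, so a difference in them was not detectable at this depth. The median over marked genes was 0.782. In Tgfbr1 the ratio was 0.254 over the whole body and 0.814 over shared bases, while in Thbs1 it was 0.673 and 0.681. Shared bases lie in an OSKM peak by definition, so bases where OSKM had no peak are left out. Tgfbr1 had 3769 shared bases against 14306 in MEF peaks, and Thbs1 had 14019 against 14173. The part of this selection in the ratios was not tested.

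From OSKM to OSKM B12 the ratio over shared bases was 1.74 in Thbs1 (1.61 to 1.89) and 1.67 in Tgfbr2 (1.59 to 1.77), both with intervals above the median of 1.49 over marked genes. It was 1.31 in Smad2 (1.14 to 1.51), 1.37 in Smad4 (1.25 to 1.51), 1.40 in Smad3 (1.18 to 1.65), 1.24 in Tgfbr1 (1.01 to 1.52), 1.57 in Tgfb1 (1.23 to 2.00) and 1.49 in Smad7 (1.12 to 1.99). In Ltbp1 it was 1.16 (0.785 to 1.73), not distinguishable from 1. From MEF to MEF B12 the ratios lay between 1.08 and 1.28, with a median of 1.13 over marked genes.

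**Figure D5:**
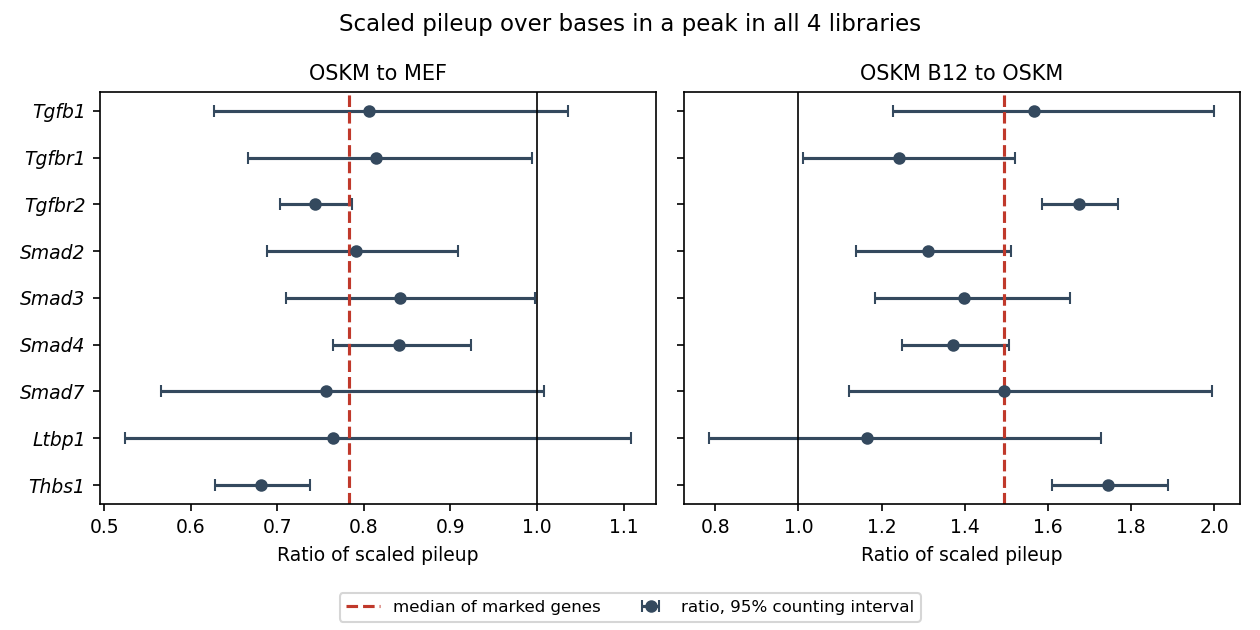
Ratio of scaled pileup (x axis) over bases in a peak in all 4 libraries for the 9 genes that have such bases, OSKM to MEF on the left and OSKM B12 to OSKM on the right. Points carry 95% counting intervals, and the dashed line is the median of the marked genes, 0.782 on the left and 1.49 on the right.

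The other genes of the pathway mostly changed in the same directions as the 10 in both comparisons with OSKM. A list of 63 further ligand, receptor, Smad, latent-complex, regulator and target genes held 52 with at least 4 exons and 44 that were marked. From MEF to OSKM, 34 of the 44 marked genes fell past 1.5-fold and 0 rose, against 68.6% of all marked genes that fell, with a median log2 change of -0.80. From OSKM to OSKM B12, 40 of the 44 rose past it and 0 fell, against 95.2% of all marked genes that rose, with a median of 1.00. From MEF to MEF B12 none of the 44 passed the limit, against 3.44% of all marked genes that were higher. From MEF to OSKM B12, 6.97% of all marked genes were higher past the limit, and the share lower past it was not counted. Of the 44, only Cnn1, calponin, passed it, downwards, and is named here after its values were seen. How rare a downward call is among marked genes is thus not known. The density of Cnn1 was 0.0430 in MEF, below the added constant, and 0.0618 in MEF B12. Its covered share was 10.5% in MEF and 12.7% in MEF B12, and it had no peak in OSKM or OSKM B12. By role, 8 of 8 marked other receptor genes fell past 1.5-fold in OSKM, where 68.6% of all marked genes did, and so did 2 of 3 other Smad genes, 5 of 6 genes of the latent complex and its activators, 9 of 13 intracellular regulators, 9 of 12 target genes and 1 of 2 ligand genes.

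Among the largest falls from MEF to OSKM in this list were those of Ltbp2, another latent TGF-β binding protein, and Acta2, smooth muscle actin. The density of Ltbp2 was 0.160 in MEF against 0.0179 in OSKM, and 0.172 in MEF B12 against 0.0964 in OSKM B12, a log2 change of -1.63 from MEF to OSKM. That of Acta2 was 0.235 in MEF against 0.0606 in OSKM, and 0.321 in MEF B12 against 0.209 in OSKM B12, a log2 change of -1.36. The smallest log2 changes from MEF to OSKM, none past 1.5-fold, were those of Inhba, an activin subunit (-0.28), Col1a1, collagen I (-0.36), and Tagln, transgelin (-0.38), whose body overlaps that of Pcsk7. The density of Inhba was 0.0432 in MEF and 0.0265 in OSKM, both under the added 0.05, which makes its log2 change small. Col1a1 was covered over 93.9% to 99.4% of its body in all 4 libraries, as Thbs1 was over 91.9% to 93.6%. Among the largest rises from OSKM to OSKM B12 was that of Acvrl1, a type I receptor (1.56).

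Among 352 pairs of a marked gene of the 10 and a marked gene of this list, the closest by Euclidean distance between log2 densities over the 4 libraries were Smad2 with Ppm1a (0.0964), Smad2 with Smad1 (0.109) and Tgfbr2 with Tgfbi (0.119). Ppm1a encodes a phosphatase of the receptor-activated Smads, Smad1 a transducer of BMP signals, and Tgfbi a matrix protein induced by TGF-β. These are descriptions over 4 libraries.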

How the data were processed

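ChIP–seq for H3K36me3 was read from 4 deposited lists of broad peaks, 1 per condition, and the 4 input libraries entered through the peak calling only. Per the labels and the submitters' processing notes, reads were aligned by the authors with Bowtie 0.12.9 on mm10, and they merged runs, removed duplicates and called broad peaks with MACS2 2.2.6 on each library against its input, not on pooled libraries. Per the file headers, the q-value cut-offs were 0.05 and 0.1 and the genome size was set to 3209286105 bases. The pileup in the deposited lists is the authors' mean fragment coverage over a peak, unscaled. The fold enrichment the authors deposited is the ratio of a peak's pileup to its local input. The authors' −log10 p and −log10 q values were used to rank and filter peaks, and the −log10 q values of some peaks are printed. Differences in them between libraries were not tested. Signal outside peaks was not analysed here.

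The pileup was divided by the tags of the library per 1000000. Gene bodies came from GENCODE M21 and promoter windows from RefSeq (GRCm38.p6). Python 3.11, numpy 2.4.6, pandas 2.3.3 and scipy 1.17.1 were used. Ratios carry exact conditional binomial 95% intervals on estimated tags (pileup times length over fragment length). These intervals treat tags as independent and take the called peaks as given. The overlap arithmetic was checked on 200 simulated cases, of which 0 were wrong. The depth of 29046913 to 33399267 tags sets what a peak can show. Peaks on unplaced scaffolds, 1 to 16 per library, were left out.

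The 10 genes, the gene lists and the tests were chosen with earlier results of these data known. Of the other pathway genes, those named are the 3 marked genes with the largest falls and the 3 with the smallest falls in log2 density from MEF to OSKM, the 3 with the largest rises from OSKM to OSKM B12, and the 3 closest pairs with one of the 10. Of the genes this rule names, 1 largest fall and 2 largest rises are not reported here. The alternatives were stricter peaks, an equal number of peaks (65473), the whole gene span, merged peaks, other scalings and added constants, shared bases, and all genes with at least 4 exons as background.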

Additional observations from a re-analysis of the deposited data

Results flagged for a closer look

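The covered share of Smad7 moved in opposite directions with vitamin B12 in the uninduced and the induced cells. It was 2.43 percentage points lower in MEF B12 than in MEF, a difference of -2.43, and 14.1 points higher in OSKM B12 than in OSKM. The density of Smad7 did not show opposite directions, with log2 changes of 0.00 and 1.05. With 1 library on each side, the difference between these 2 changes was not tested. Opposite directions in covered share were found for 28.2% of the 8767 marked genes, and in density for 7.63% of them.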

How the results depend on the processing

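Over the 6 counts of genes past a limit, 33 of 46 values under the alternatives stayed within 1.5 times the reported count and 13 moved beyond it. Keeping peaks whose enrichment over input reached 2, taking as many peaks in each library, the whole gene span, pileup not divided by tags, and merged peaks moved none of them. With peaks of −log10 q of at least 5, the genes past 1.5-fold were 3 lower from MEF to OSKM (60.4% of marked genes), and 4 and 3 higher from MEF to MEF B12 (18.0%) and to OSKM B12 (23.7%). By covered share they were then 1 lower from MEF to OSKM (53.7%) and 3 higher from OSKM to OSKM B12 (64.9%). With densities divided by the marked-gene median of each library, 1 gene was lower from MEF to OSKM (10.7% of marked genes) and 0 were higher from OSKM to OSKM B12 (9.90%). An added constant of 0.2 gave 0 (21.6%) and 4 (63.6%) for the same comparisons, bases in a peak in all 4 libraries gave 0 (1.39%) and 2 (24.9%), and a constant of 0.01 gave 2 from MEF to MEF B12 (7.05%) and 2 from MEF to OSKM B12 (12.3%). Division by the marked-gene median changed the sign of 14 of the 40 log2 changes of the 10 genes. Among genes called as reported, it turned the change from MEF to OSKM to 0.0578 in Tgfb1 and 0.114 in Tgfbr2, and in the uncalled Thbs1 it moved from -0.53 to 0.43. From OSKM to OSKM B12 it turned the change to -0.00949 in Tgfb1, -0.0524 in Tgfbr2, -0.0426 in Smad4 and -0.51 in Thbs1. Division by that median removes what all marked genes share by construction, and for the other alternatives the cause was not tested. Over all 16344 genes with at least 4 exons, the background shares were 37.2%, 52.0%, 2.07% and 3.96% for OSKM against MEF, OSKM B12 against OSKM, MEF B12 against MEF and OSKM B12 against MEF. No paired analysis was possible because there was a single library for each condition. Depth limits what the peak lists can show: a base outside peaks had no enrichment detectable at 29046913 to 33399267 tags.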
